A study of Mus musculus with 30 samples.

Results

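The 10 genes described here serve to show peptides on the cell surface to T cells. They were the rows of the deposited count tables whose symbol is H2-K1, H2-D1, B2m, Tap1, Psmb8 or Nlrc5, the 6 class I genes, or H2-Aa, H2-Ab1, Cd74 or Ciita, the 4 class II genes, 10 genes of the 55487 counted. Their levels were compared across 8 groups of libraries from wild-type mouse lung organoids, grown from primary lung cells of C57BL/6J mice that were negative for CD31 and CD45 and positive for Epcam, together with CCL206, a mouse lung fibroblast line whose division had been stopped with mitomycin C. Each culture received for 72 hours the vehicle, EC (an exacerbation cocktail of IL-1β, IL-6, TNF-α and IL-8, for which the paper names KC), IPFc (9 factors raised in idiopathic pulmonary fibrosis, namely TGF-β, TNF-α, TSLP and CCL2 with the interleukins IL-33, IL-13, IL-8, IL-4 and IL-1β) or TGF-β alone at 2 ng/ml. Epcam microbeads then split each culture into an Epcam+ fraction, the epithelial libraries, and a CCL206 fraction, the fibroblast libraries, and bulk RNA was sequenced. The labels number the mice from 1 to 4, and every group held 4 libraries except epithelial TGF-β (n = 3, without mouse 1) and fibroblast vehicle (n = 3, without mouse 2). All fibroblast libraries came from 1 cell line, so the mouse number there names the epithelial cells that shared the culture. By the paper's methods the mice, of both sexes, were more than 8 weeks old.

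MHC class I molecules are carried by nearly all nucleated cells and consist of a heavy chain, H2-K1 or H2-D1, bound to β2-microglobulin (B2m). Their peptides are cut by the immunoproteasome, of which Psmb8 is a catalytic subunit, and brought into the endoplasmic reticulum by the transporter that Tap1 forms with Tap2. Nlrc5 is the transactivator of this gene set. MHC class II molecules, here the chains H2-Aa and H2-Ab1 with the invariant chain Cd74 and the transactivator Ciita, are best known from professional antigen-presenting cells, but alveolar type 2 (AT2) cells of the lung also carry them. Interferon-γ raises both classes in many cell types, and TGF-β is known to lower class II in several of them.

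In RefSeq on GRCm38.p6, the build the paper names (the sample labels name GRCm39), 6 of the 10 genes lie in the MHC region of chromosome 17. In order they are H2-K1 (33996012 to 34000619), Tap1 (34187556 to 34197225), its neighbour Psmb8 (34198195 to 34201454), H2-Ab1 (34263227 to 34269418), H2-Aa (34282744 to 34287823) and H2-D1 (35263094 to 35267497). B2m lies on chromosome 2 (122147687 to 122153082), Nlrc5 on chromosome 8 (94434335 to 94527272) and Ciita on chromosome 16 (10480014 to 10531064). RefSeq's promoter table for this build held 6 of the 10 genes, with no entry for H2-Ab1, Cd74, Ciita or Nlrc5. The 250 bases before the RefSeq start of H2-D1, B2m and H2-Aa are given below, 5′ to 3′ on the gene's strand. They were chosen because these 3 genes did not all move alike under TGF-β. H2-D1 was lower in both fractions, and B2m and H2-Aa were higher in the epithelial and lower in the fibroblast libraries. The epithelial calls of H2-D1 and B2m were lost when the estimated fibroblast RNA was subtracted, as described further on. Capitals mark matches, on either strand, to GGGNNTTCC (a κB-type site), GAANNGAAA (part of an interferon-stimulated response element), TTCNNNGAA (a GAS-type site), ATTGG (the core of the Y box) and TGACG (the core of the X2 box, a CRE-type site). The windows are chr17:35262844-35263093 on the plus strand for H2-D1, chr2:122147437-122147686 on the plus strand for B2m and chr17:34287824-34288073 on the minus strand for H2-Aa.
H2-D1: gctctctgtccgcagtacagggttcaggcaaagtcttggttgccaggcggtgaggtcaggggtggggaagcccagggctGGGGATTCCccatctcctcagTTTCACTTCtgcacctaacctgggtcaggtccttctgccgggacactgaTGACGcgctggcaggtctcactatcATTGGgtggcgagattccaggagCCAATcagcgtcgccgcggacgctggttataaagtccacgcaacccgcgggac
B2m: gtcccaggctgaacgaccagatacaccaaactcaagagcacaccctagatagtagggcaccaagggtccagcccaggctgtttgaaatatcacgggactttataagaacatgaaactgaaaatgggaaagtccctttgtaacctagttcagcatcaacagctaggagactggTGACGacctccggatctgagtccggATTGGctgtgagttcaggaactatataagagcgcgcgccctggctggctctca
H2-Aa: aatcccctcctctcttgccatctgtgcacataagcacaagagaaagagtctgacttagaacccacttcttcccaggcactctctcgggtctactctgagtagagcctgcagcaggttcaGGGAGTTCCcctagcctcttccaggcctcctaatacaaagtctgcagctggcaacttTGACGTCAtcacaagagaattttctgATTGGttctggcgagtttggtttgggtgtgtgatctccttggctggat

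The ATTGG and TGACG letters stood in 5 of the 6 windows, those of H2-K1, H2-D1, B2m, Tap1 and H2-Aa, and in that of Psmb8 neither was present. Among all 32851 promoter windows of this length, 33.8% held ATTGG and 17.8% held TGACG. The class I heavy chain windows of H2-K1 and H2-D1 carried the same κB-type letters, GGGGATTCC, and the same TTTCACTTC, which is GAANNGAAA read on the other strand. H2-Aa carried GGGAGTTCC at 131 bases before its start and no match to GAANNGAAA. In H2-Aa the TGACG match, at 74 bases before the start, overlaps a match on the other strand by 2 bases. GGGNNTTCC was found in 4.98% of all windows, GAANNGAAA in 6.31% and TTCNNNGAA, found here in the window of Psmb8 alone, in 7.02%. These are matches of letters and say nothing of which factor was bound.

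The libraries held 5113828 to 20317181 counted reads (median 13843287), and the shallowest was fibroblast EC of mouse 1. Levels below are CPM, the reads of a gene scaled to the counted reads of its library, given in the order of the mice. Differences are log2 values from edgeR's quasi-likelihood test after TMM scaling, with the mouse as a block and Benjamini-Hochberg adjustment over all genes tested, and a gene passed at an adjusted p under 0.05. Epcam stood at 210.1 to 410.5 CPM in the epithelial and 3.00 to 111 CPM in the fibroblast libraries, and Col1a2 at 128 to 1773 and 1819.9 to 7104 CPM, so the fractions matched their names but were not pure. From 27 epithelial and 28 fibroblast reference genes, the share of RNA of the other fraction was estimated by the median ratio of a library to its partner from the same culture. By this estimate epithelial RNA made up 17.3 to 30.6% of fibroblast vehicle, 38.2 to 57.9% of EC, 11.1 to 31.4% of IPFc and 0.946 to 3.71% of TGF-β libraries. Fibroblast RNA by the same estimate made up 4.14 to 9.60% of epithelial vehicle, 5.34 to 15.4% of EC, 4.90 to 16.1% of IPFc and 25.8 to 31.3% of TGF-β libraries. These estimated shares moved with the treatment. The estimate takes the reference genes to be silent in cells of the other fraction under every treatment, which was not tested. Every test of a member was repeated with the share subtracted from the counts, and results below 0 were set to 0. The members that lost their call are given beside the result. Of 23 immune cell markers, Ptprc, the pan-leukocyte gene CD45, was at 0 in 11 of 30 libraries and at most 1.10 CPM, and Xcr1 was at 0 in all 30. Other markers were read, Cd68 in every library at 3.98 to 13.5 CPM and Coro1a in every library at 0.121 to 7.08 CPM. Itgax reached 2.68, Marco 2.36, Csf1r 2.18 and Laptm5 2.12 CPM. The summed level of the 23 markers was 128 to 483 CPM in the epithelial and 21.9 to 205 CPM in the fibroblast libraries. Cd14 was the top marker in every group but fibroblast TGF-β, where it was Cd68 with a mean of 10.1 CPM. Most of the epithelial sum was Cd14, and without it the other 22 markers summed to 6.40 to 10.4 CPM in the epithelial and 12.96 to 26.8 CPM in the fibroblast libraries. Endothelial markers summed to at most 10 CPM. H2-D1 and H2-K1 took 52.7% and 31.2% of the reads of the 30 class I heavy chain genes and pseudogenes counted. Some of these have similar sequences, and how the counting split reads between them was not tested. In bulk RNA, fewer cells that carry a transcript and less transcript per cell cannot be told apart.

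TGF-β raised the class II genes of the epithelial fraction. All 4 passed the test and were higher than in vehicle, by 1.93 to 2.92 on the log2 scale, while among all 18024 genes tested 41.1% passed in this comparison. Cd74, the invariant chain that guards the class II groove, stood at 52.7, 49.1, 56.5 and 54.3 CPM in the vehicle libraries of mice 1 to 4. Under TGF-β it stood at 293, 227 and 169.5 CPM in mice 2, 3 and 4. The lowest TGF-β library lay over 100 CPM above the highest vehicle library, and the difference was 1.93 (SE 0.23, adjusted p = 8.8e-07).

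H2-Aa, the class II α chain, stood at 7.10, 7.05, 7.09 and 5.40 CPM in vehicle and 51.6, 36.8 and 26.3 CPM under TGF-β. H2-Ab1, the β chain, went from 9.82, 8.01, 10.2 and 4.92 to 67.7, 47.2 and 32.7 CPM. For both chains the groups lay far apart, and within TGF-β mouse 2 was highest and mouse 4 lowest, as for Cd74. The differences were 2.19 (SE 0.31, adjusted p = 7.13e-06) for H2-Aa and 2.46 (SE 0.19, adjusted p = 2.43e-09) for H2-Ab1. Ciita, the transactivator on which class II genes depend, was close to the detection limit in vehicle at 1.23, 0.16, 1.03 and 0.484 CPM. Under TGF-β it stood at 8.55, 6.16 and 2.54 CPM, again highest in mouse 2 and lowest in mouse 4, a difference of 2.92 (SE 0.52, adjusted p = 0.000119). Fibroblast libraries of the same cultures held so little class II RNA that their estimated share would carry at most 3.00% of any of these 4 levels under TGF-β, and all 4 genes still passed with that share subtracted, Cd74 at 2.36 (adjusted p = 4.4e-05).

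Other genes moved in these libraries with class II. The 6 AT2 genes Sftpa1, Sftpb, Sftpc, Sftpd, Lamp3 and Abca3 (a subset picked after values were seen) serve the making and storing of surfactant. All 6 fell in the epithelial TGF-β libraries, with log2 differences from -1.09 for Lamp3 to -4.43 for Sftpa1. Epcam was higher at 0.77 (SE 0.09, adjusted p = 8.77e-07). Of the 27 epithelial reference genes, which include these, 20 were lower and 3 higher, with a median of -0.956, beside 41.1% of all genes that passed. Of the 8 immune markers tested Cd14 was lower under TGF-β at -0.89 (SE 0.09, adjusted p = 8.08e-08), and the other 22 markers summed to 7.62 to 10.3 CPM there and 6.77 to 7.91 CPM in vehicle. The markers that rose were Csf1r, the receptor of macrophage growth factor, and Itgax, an integrin of dendritic cells and alveolar macrophages. Csf1r stood at 0.136, 0.32, 0.345 and 1.05 CPM in vehicle and 1.54, 1.13 and 2.18 CPM under TGF-β, at 1.71 (SE 0.56, adjusted p = 0.0194). Itgax had 1 read over the 4 vehicle libraries and 13, 1 and 12 reads in mice 2, 3 and 4 under TGF-β (adjusted p = 0.0069), and in fibroblast TGF-β libraries it stood at 1.63 ± 0.119 CPM (SD, n = 4). Mouse 3, with 1 Itgax read and Csf1r at 1.13 CPM, had Cd74, H2-Aa and H2-Ab1 levels between those of mice 2 and 4. This order rests on 1 library per mouse and few reads. With the fibroblast share subtracted, 7 immune markers were tested, of which 1 was higher and 2 were lower, where 26.9% of all genes passed. Adgre1 and Xcr1, markers of macrophages and of a dendritic cell subset, had at most 0.629 CPM and 0 reads in all libraries. Cd68, also on the list, was read in every library at 3.98 to 13.5 CPM. The part of immune cells in the class II result was not tested.

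**Figure D1:**
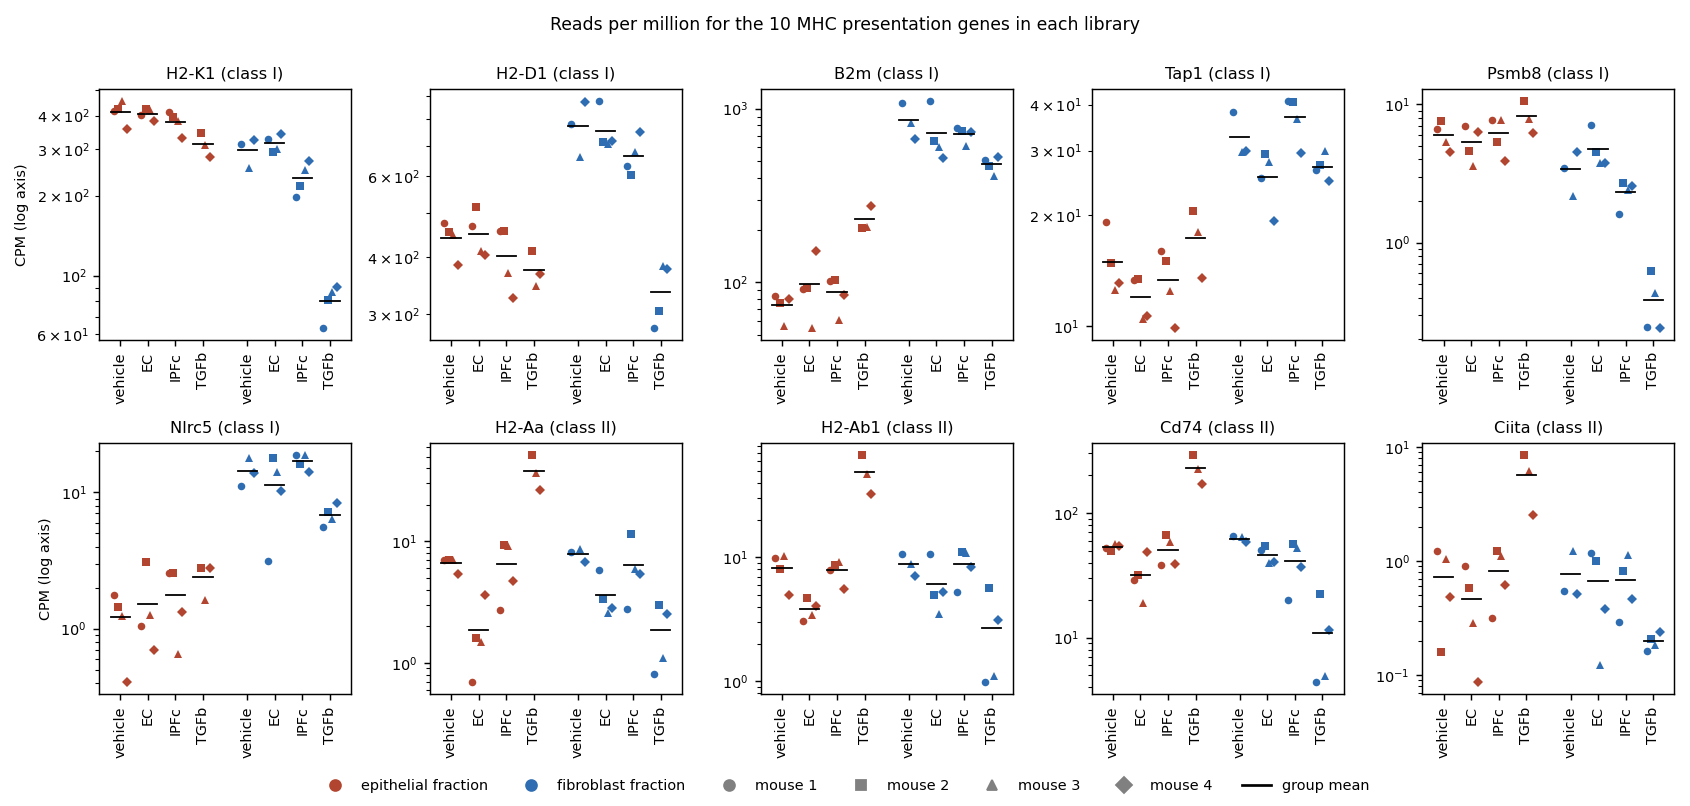
Levels of the 10 genes in every library, in CPM on a log axis, with epithelial libraries in red, fibroblast libraries in blue, 1 symbol shape per mouse and a bar at each group mean. The 4 class II genes stand highest in epithelial TGF-β and lowest in fibroblast TGF-β, except H2-Aa, whose mean is as low in epithelial EC. Of the class I genes, H2-K1, H2-D1 and Psmb8 have their lowest group mean in fibroblast TGF-β.

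The class I genes of the epithelial fraction did not follow them. Of the 6, B2m was higher under TGF-β, H2-K1 and H2-D1 were lower, and Tap1, Psmb8 and Nlrc5 did not pass. B2m, the light chain, went from 83.03, 76.03, 56.2 and 80.7 CPM in vehicle to 207, 209 and 275 CPM, with every TGF-β library above every vehicle library and a difference of 1.59 (SE 0.17, adjusted p = 1.45e-07). The estimated fibroblast share was also larger under TGF-β, and its part in this rise was not tested. B2m was so much higher in the fibroblast libraries that their estimated share would carry 41.5 to 125% of the level in epithelial vehicle libraries and 50.5 to 61.00% of that under TGF-β. With the share subtracted the difference was larger, at 1.82, but did not pass (adjusted p = 0.131). In vehicle of mouse 1 the share exceeded the B2m level, so the subtraction left no reads there. For Nlrc5 the same product came to 50.5 to 171% in vehicle and 70.1 to 102% under TGF-β, so its epithelial level could not be set apart from fibroblast RNA.

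The heavy chain H2-K1 stood at 415, 425, 455 and 355 CPM in epithelial vehicle and 345, 309 and 280.1 CPM under TGF-β. Every TGF-β library was below every vehicle library, and the difference of -0.50 (SE 0.09, adjusted p = 0.000127) was small beside those of class II. H2-D1 stood at 474, 454, 446 and 384 CPM and 411, 345 and 366 CPM, and here the groups overlapped, with TGF-β of mouse 2 above vehicle of mouse 4. Its difference was -0.30 (SE 0.09, adjusted p = 0.0125). Neither heavy chain passed with the fibroblast share subtracted, at -0.18 (adjusted p = 0.181) for H2-K1 and -0.24 (adjusted p = 0.133) for H2-D1, and without mouse 3 H2-D1 was at -0.22 (adjusted p = 0.152). With library totals in place of TMM, which moved the median of all genes by 0.105, H2-D1 was at -0.19 and did not pass (adjusted p = 0.0948). Tap1 stood at 19.2, 14.8, 12.6 and 13.1 CPM in vehicle and 20.5, 17.98 and 13.5 CPM under TGF-β, a difference of 0.22 (SE 0.14, adjusted p = 0.245). Psmb8, the immunoproteasome subunit, stood at 6.62, 7.61, 5.36 and 4.52 and 10.6, 7.86 and 6.16 CPM, a difference of 0.45 (SE 0.26, adjusted p = 0.175). Nlrc5 stood at 1.77, 1.44, 1.23 and 0.403 and 2.76, 1.62 and 2.78 CPM, a difference of 0.97 (SE 0.46, adjusted p = 0.1). For all 3 of these genes the groups overlapped.

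In the fibroblast libraries the same factor went with lower levels. Under TGF-β 8 of the 10 genes passed and all 8 were lower, against 19.1% of all 18048 genes tested that passed in either direction. H2-K1 fell from 312, 255 and 323 CPM in the vehicle libraries of mice 1, 3 and 4 to 63.4, 80.9, 86.4 and 90.2 CPM in mice 1 to 4, a log2 difference of -1.75 (SE 0.14, adjusted p = 1.02e-07). H2-D1 fell from 781, 663 and 873 to 279, 305, 382 and 376 CPM, by less than H2-K1, with a log2 difference of -1.04 (SE 0.15, adjusted p = 5.28e-05). For both heavy chains every TGF-β library was far below every vehicle library. Psmb8 was at 3.46, 2.17 and 4.55 CPM in vehicle and at 0.244, 0.618, 0.429 and 0.24 CPM under TGF-β, close to no reads at all, a difference of -3.05 (SE 0.43, adjusted p = 4.61e-05). The epithelial share, multiplied by the epithelial level, would carry 30.3 to 42.9% of the Psmb8 level in fibroblast vehicle and 17.3 to 95.3% of that under TGF-β, and with this share subtracted Psmb8 was at -3.86 and did not pass (adjusted p = 0.0649).

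B2m fell from 1079.5, 824 and 668 to 504, 470.4, 409 and 530.2 CPM, without overlap, at -0.68 (SE 0.18, adjusted p = 0.00998), a call that was lost without mouse 3 (adjusted p = 0.153). Nlrc5 went from 11.2, 17.7 and 13.8 to 5.60, 7.21, 6.37 and 8.28 CPM, also without overlap, at -0.99 (SE 0.29, adjusted p = 0.0225), and it did not pass without the mouse as a block (-0.93, adjusted p = 0.0643), without mouse 3 (-0.86, adjusted p = 0.234) or without mouse 4 (-1.15, adjusted p = 0.082). It did not pass with the epithelial share subtracted either (-1.33, adjusted p = 0.0884), although that share would carry only 0.894 to 3.01% of its level in vehicle and 0.24 to 1.25% under TGF-β. Tap1 was the class I gene that did not pass in either fraction. It stood at 38.2, 29.8 and 29.99 CPM in fibroblast vehicle and 26.5, 27.4, 29.97 and 24.7 CPM under TGF-β, groups that overlapped, a difference of -0.19 (SE 0.14, adjusted p = 0.419).

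Among the class II genes of the fibroblast libraries, Cd74 fell from 65.1, 63.9 and 58.2 to 4.39, 22.5, 4.96 and 11.5 CPM, a log2 difference of -2.80 (SE 0.36, adjusted p = 1.67e-05). H2-Aa fell from 8.18, 8.74 and 6.79 to 0.812, 3.02, 1.10 and 2.52 CPM, at -2.23 (SE 0.41, adjusted p = 0.000741). H2-Ab1 fell from 10.7, 8.90 and 7.11 to 0.975, 5.63, 1.10 and 3.12 CPM, at -1.83 (SE 0.48, adjusted p = 0.0116). Under TGF-β all 3 were highest in mouse 2, next in mouse 4 and lowest in mouse 1, and no TGF-β library reached its vehicle group. Ciita was at 0.551, 1.24 and 0.513 CPM in vehicle and 0.162, 0.206, 0.184 and 0.24 CPM under TGF-β and did not pass, at -1.87 (SE 0.74, adjusted p = 0.0946). H2-Ab1 lost its call without mouse 3 (adjusted p = 0.105) and with the epithelial share subtracted (-2.66, adjusted p = 0.0912).

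Epithelial genes moved with class II in these libraries. All 27 epithelial reference genes also fell in the fibroblast libraries under TGF-β, with a median log2 difference of -3.93, and 15 of 27 tested fibroblast reference genes rose and 3 fell. Sftpc, the AT2 surfactant gene, fell from 3054, 2594 and 3321 to 37.2, 274, 80.9 and 134 CPM in fibroblast libraries. Like class II it was highest in mouse 2 and next in mouse 4 under TGF-β. The estimated epithelial share of these TGF-β libraries had another order, at 1.35, 2.84, 0.946 and 3.71% in mice 1 to 4. In vehicle Cd74, H2-Aa and H2-Ab1 were not at the share that most epithelial genes showed. The fibroblast library held 124, 113 and 107% of the epithelial Cd74 level in mice 1, 3 and 4, 115, 123 and 126% for H2-Aa and 109, 87.3 and 145% for H2-Ab1, but 14.3, 12.8 and 20.8% for Epcam. Ciita, read at about 1 CPM or less, ranged widely at 44.8, 119.8 and 106%. Sftpc lay, in each mouse, between Epcam and Cd74, H2-Aa and H2-Ab1, at 78.7, 51.9 and 91.1%. Over the 6 AT2 genes above the median was 33.1 to 43.03% in vehicle, and over the other epithelial reference genes it was 15.1 to 27.5%. Under TGF-β the fibroblast library held 7.68, 2.19 and 6.79% of the epithelial Cd74 level in mice 2, 3 and 4, against 10.4, 5.07 and 13.6% for Sftpc and 2.31, 0.732 and 2.40% for Epcam. Whether the class II RNA of the fibroblast fraction came from CCL206 cells or from epithelial cells without bound Epcam beads was not tested.

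**Figure D2:**
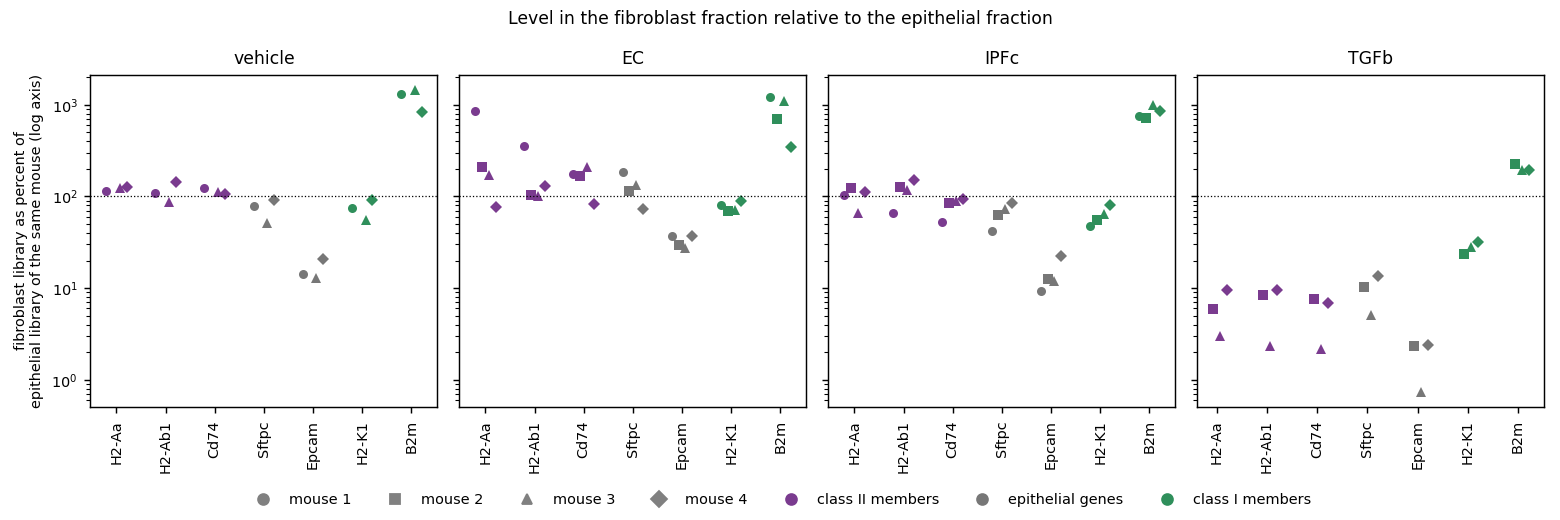
Level in the fibroblast library as a percent of that in the epithelial library of the same mouse and treatment, on a log axis, with 1 symbol per mouse and a dotted line at 100. Cd74, H2-Aa and H2-Ab1 (purple) lie at 87.3 to 145% under vehicle and below 10% with TGF-β, spread most under EC, Epcam lies below them in every panel, and B2m lies above 100% throughout.

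Set side by side, under TGF-β Cd74, H2-Aa, H2-Ab1 and B2m were higher in the epithelial and lower in the fibroblast libraries, Ciita passed in the epithelial libraries alone, and H2-K1 and H2-D1 were lower in both. The difference of the 2 responses, fitted as an interaction over all libraries, passed for 9 of the 10 genes, each higher in the epithelial response, against 27.5% of all genes tested, whose median difference in this fit was itself 0.213. It was 4.84 (SE 0.95, adjusted p = 0.000303) for Ciita, 4.74 (SE 0.48, adjusted p = 3.23e-08) for Cd74, 4.42 (SE 0.58, adjusted p = 1.36e-06) for H2-Aa and 4.29 (SE 0.53, adjusted p = 6.74e-07) for H2-Ab1. For class I it was largest for Psmb8 at 3.52 (SE 0.52, adjusted p = 7.9e-06), followed by B2m at 2.30 (SE 0.27, adjusted p = 3.07e-07), Nlrc5 at 1.91 (SE 0.55, adjusted p = 0.00999), H2-K1 at 1.28 (SE 0.17, adjusted p = 1.58e-06) and H2-D1 at 0.77 (SE 0.18, adjusted p = 0.00153). Tap1 did not pass at 0.43 (SE 0.19, adjusted p = 0.0953). With the shares subtracted B2m (2.74, adjusted p = 0.153) and Nlrc5 (1.20, adjusted p = 0.46) no longer passed. In the same fit 26 of 27 epithelial and 25 of 27 fibroblast reference genes were also higher in the epithelial response. The shares given above were estimated from these same lists, so this is no separate measure of them. For EC (4.59% of all genes passed) and IPFc (0.229%) no member passed the interaction with edgeR or with DESeq2, and 1 member, B2m, was under an unadjusted p of 0.05 for EC and 0 for IPFc by both tools.

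**Figure D3:**
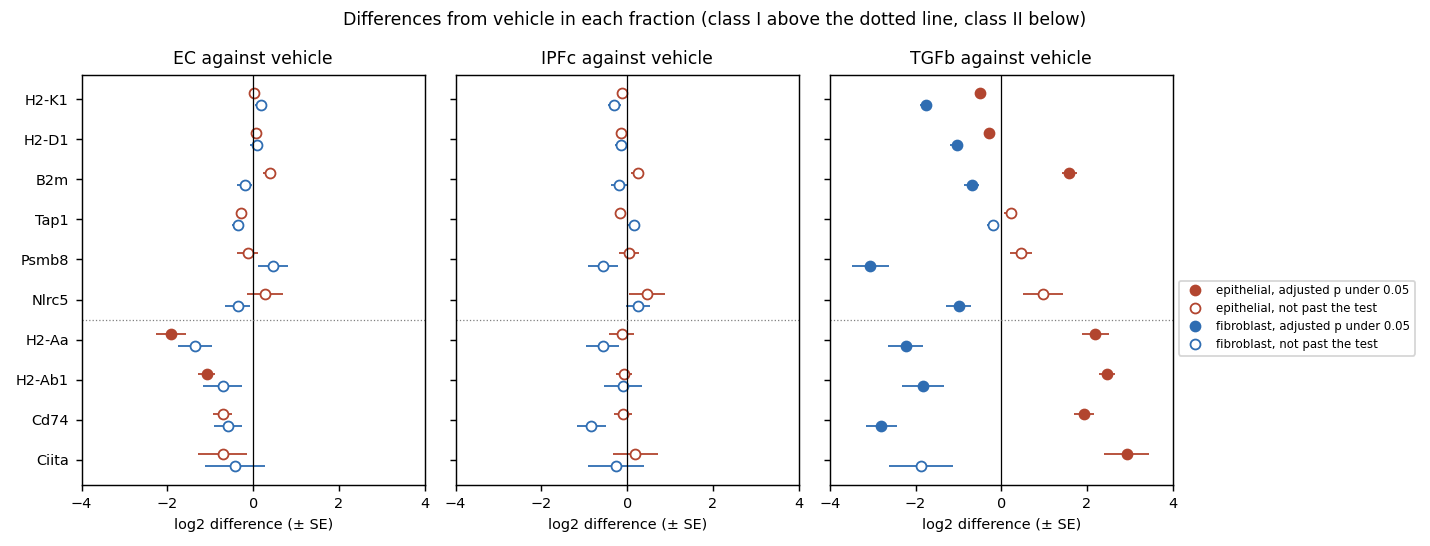
Log2 difference from vehicle for each gene and treatment, with standard errors as bars, epithelial libraries in red and fibroblast libraries in blue, filled where the adjusted p was under 0.05. Class II genes lie to the right in the epithelial and to the left in the fibroblast fraction under TGF-β, and to the left of 0 in both fractions under EC, where H2-Aa and H2-Ab1 of the epithelial fraction are the 2 filled points.

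EC lowered H2-Aa and H2-Ab1, 2 of the 4 class II genes, in the epithelial fraction. Of the 10 genes these 2 passed, against 4.41% of all genes tested. H2-Aa stood at 0.692, 1.60, 1.49 and 3.63 CPM under EC, every library below the vehicle range of 5.40 to 7.10 CPM, at -1.91 (SE 0.35, adjusted p = 0.00148). H2-Ab1 stood at 3.05, 4.73, 3.44 and 4.07 CPM under EC, also below every vehicle library, at -1.08 (SE 0.20, adjusted p = 0.00185). Cd74 stood at 28.8, 32.1, 19.1 and 48.3 CPM, below vehicle in all 4 mice, but did not pass at -0.71 (SE 0.22, adjusted p = 0.0687). Without mouse 4, whose Cd74 level changed least, it passed (adjusted p = 0.00092). Ciita stood at 0.9, 0.582, 0.286 and 0.0865 CPM, at -0.71 (SE 0.57, adjusted p = 0.653). H2-Aa no longer passed with the fibroblast share subtracted (-2.17, adjusted p = 0.0674), and H2-Ab1 stood at the threshold without mouse 3 (adjusted p = 0.0501). Sftpc, the AT2 surfactant gene, was also lower under EC in this fraction, at -1.03 (SE 0.24, adjusted p = 0.0133).

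None of the 6 class I genes passed in epithelial EC. B2m stood at 91.95, 93.02, 54.6 and 152 CPM, with mouse 4 high and mouse 3 low, at 0.39 (SE 0.15, adjusted p = 0.204), and Tap1 at 13.4, 13.4, 10.5 and 10.6 CPM, at -0.28 (SE 0.13, adjusted p = 0.332). H2-K1 (402, 423, 419 and 382 CPM) and H2-D1 (468, 515, 411 and 404 CPM) stayed within 0.07 log2 units of vehicle, with SEs of 0.08 and 0.08. Psmb8 stood at 6.92, 4.58, 3.61 and 6.31 CPM and Nlrc5 at 1.04, 3.05, 1.26 and 0.692 CPM, both overlapping vehicle.

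In the fibroblast libraries, no member passed under EC, where 7.11% of all genes did. The count at an unadjusted p under 0.05 was 2 (Tap1 and H2-Aa), and DESeq2 called 1. H2-Aa stood at 5.87, 3.37, 2.55 and 2.82 CPM, below every vehicle library, and just missed the threshold at -1.36 (SE 0.40, adjusted p = 0.0509). Without mouse 1, whose EC library was the shallowest, it passed at -1.61 (adjusted p = 0.00143). H2-Ab1 (10.8, 4.95, 3.47 and 5.26 CPM), Cd74 (50.6, 53.9, 39.8 and 40.3 CPM) and Ciita (1.17, 1.00, 0.122 and 0.379 CPM) had differences of -0.71, -0.59 and -0.42. These libraries had a larger estimated share of epithelial RNA than vehicle. Of the 27 epithelial reference genes, from which that share was estimated, 16 were higher. Class I levels were 327, 293, 300.0 and 341 CPM for H2-K1, 879, 715, 707 and 717 CPM for H2-D1 and 1110.5, 647, 601 and 523 CPM for B2m. The shallow library of mouse 1 was the highest of its group for H2-D1 and B2m and, with Nlrc5 at 3.13, 17.8, 14.1 and 10.2 CPM, the lowest for the transactivator. Tap1 was at 25.2, 29.3, 27.9 and 19.4 CPM and Psmb8 at 7.04, 4.52, 3.77 and 3.79 CPM, with differences of -0.35 and 0.46.

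IPFc, although it contains TGF-β, went with no called change of any member in either fraction. In the epithelial libraries 4.11% of all genes passed, and no member was under an unadjusted p of 0.05 with edgeR or DESeq2. Cd74 stood at 38.1, 66.5, 58.7 and 39.1 CPM, H2-Aa at 2.71, 9.33, 9.11 and 4.74 CPM, H2-Ab1 at 7.98, 8.63, 9.24 and 5.59 CPM and Ciita at 0.319, 1.22, 1.10 and 0.621 CPM. All 4 overlapped vehicle, and their differences lay between -0.13 and 0.19. Class I stood at 412, 394, 381 and 331 CPM for H2-K1, 455, 456, 368 and 325 CPM for H2-D1, 102, 104, 61.03 and 84.5 CPM for B2m and 15.96, 14.99, 12.5 and 9.86 CPM for Tap1. Psmb8 was at 7.74, 5.36, 7.69 and 3.88 CPM and Nlrc5 at 2.55, 2.57, 0.646 and 1.32 CPM. The class I differences lay between -0.16 and 0.46.

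In fibroblast IPFc libraries 0.449% of all genes passed. Cd74 was the member with an unadjusted p under 0.05 with edgeR (DESeq2 gave 0), at 20.01, 55.96, 52.8 and 36.6 CPM with mouse 1 low and a difference of -0.84 (SE 0.33, adjusted p = 0.596). H2-Aa was at 2.79, 11.5, 5.96 and 5.35 CPM, H2-Ab1 at 5.28, 11.01, 10.9 and 8.37 CPM and Ciita at 0.293, 0.824, 1.13 and 0.465 CPM. H2-K1 was at 197, 217, 249 and 269 CPM, below vehicle in mice 1, 3 and 4, at -0.30 (SE 0.14, adjusted p = 0.769). H2-D1 was at 633, 603, 677 and 752 CPM, B2m at 773, 745, 608 and 734 CPM and Tap1 at 40.98, 40.8, 36.5 and 29.6 CPM. Psmb8 was at 1.61, 2.70, 2.39 and 2.56 CPM and Nlrc5 at 18.8, 16.03, 18.7 and 14.2 CPM, and both overlapped vehicle.

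Between treatments, EC and IPFc differed in H2-Aa and H2-Ab1 in the epithelial fraction. H2-Aa (-1.78, SE 0.35, adjusted p = 0.00289) and H2-Ab1 (-1.01, SE 0.20, adjusted p = 0.00365) were lower under EC, 2 of 10 members against 4.17% of all genes, while Cd74 (adjusted p = 0.141) and Ciita (adjusted p = 0.505) did not pass. H2-Aa lost this call with the fibroblast share subtracted (-1.996, adjusted p = 0.0911). TGF-β differed from EC in 8 of 10 epithelial members (43.1% of all genes) and from IPFc in 7 of 10 (37.3%), the class II genes each time with the higher level under TGF-β. The class II differences were -2.64 for Cd74 to -4.10 for H2-Aa when EC was set against TGF-β, and -2.02 for Cd74 to -2.73 for Ciita when IPFc was. With the share subtracted, H2-K1, H2-D1, B2m and Tap1 did not pass between EC and TGF-β, nor H2-K1 and Tap1 between IPFc and TGF-β. Psmb8 then passed between EC and TGF-β at -0.99, adjusted p = 0.0252, and Nlrc5 between IPFc and TGF-β at -5.82, adjusted p = 0.0346. For Nlrc5 the estimated fibroblast share would carry 100.3 to 141.9% of the level in epithelial IPFc libraries. The subtraction left no Nlrc5 reads there, so the -5.82 comes from counts set to 0. Before subtraction the Nlrc5 difference was -0.52 (adjusted p = 0.401). In the fibroblast fraction, EC and IPFc differed in 2 of 10 members (10.4% of all genes), H2-K1 higher under EC at 0.48 (SE 0.13, adjusted p = 0.0268) and Tap1 lower at -0.51 (SE 0.13, adjusted p = 0.0164). The epithelial share would carry 49.03 to 64.9% of the H2-K1 level under EC and 23.1 to 38.6% under IPFc, and with it subtracted neither H2-K1 (0.27, adjusted p = 0.807) nor Tap1 (-0.28, adjusted p = 0.746) passed. EC stood above TGF-β in 5 of 10 (35.4%) and IPFc above TGF-β in 8 of 10 (17.4%). Of these 8, Psmb8 (2.75, adjusted p = 0.18), H2-Aa (2.43, adjusted p = 0.0645) and H2-Ab1 (2.58, adjusted p = 0.0785) did not pass with the share subtracted. These comparisons share libraries with each other and with those against vehicle.

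Between epithelial and fibroblast vehicle libraries all 6 class I and none of the 4 class II genes passed, 6 of 10 members beside 56% of all genes (edgeR, 18364 genes, all 30 libraries), 2 of them higher and 4 lower in the epithelial libraries. B2m was lower in the epithelial libraries at -3.44 (SE 0.23, adjusted p = 1.69e-12), as was Nlrc5 at -3.55 (SE 0.42, adjusted p = 4.3e-08). Tap1 (-1.08, SE 0.14, adjusted p = 1.42e-07) and H2-D1 (-0.72, SE 0.15, adjusted p = 0.000143) were also lower there. H2-K1 and Psmb8 went the other way, higher in the epithelial libraries by 0.57 and 0.86, and Psmb8 did not pass with the shares subtracted (1.09, adjusted p = 0.147). The class II genes did not pass, with differences between -0.28 and -0.01. Under EC 5 members passed (49.1% of all genes), under IPFc 6 (58.3%) and under TGF-β 9 (48.2%). Under TGF-β all 4 class II genes were higher in the epithelial libraries by 4.08 to 4.62, Psmb8 by 4.34 and H2-K1 by 1.86, while H2-D1 no longer passed at 0.08 (SE 0.15, adjusted p = 0.7). B2m was lower there at -1.07 (SE 0.22, adjusted p = 0.000255), which did not pass with the shares subtracted (-2.25, adjusted p = 0.248). By group mean, epithelial TGF-β held the highest level of each class II gene and of Psmb8, and fibroblast TGF-β held the lowest of H2-K1, H2-D1, Psmb8, H2-Ab1, Cd74 and Ciita. Between these ends, the class II levels of epithelial and fibroblast vehicle, and of each fraction's IPFc and vehicle, did not pass in the tests made.

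The rest of the antigen presentation machinery was read from lists that hold none of the 10 genes. In epithelial TGF-β libraries 9 of 11 tested genes of the class II list were higher and 1 was lower, with a median of 1.503 against 0.033 over all genes, of which 41.1% passed in either direction. H2-Eb1, a further class II β chain, went from 5.52 ± 1.13 CPM (SD, n = 4) to 34.5 ± 12.6 CPM (SD, n = 3), at 2.40 (SE 0.30, adjusted p = 1.82e-06). H2-Eb2 and H2-DMb2, a further β chain and a subunit of the peptide editor H2-M, also rose and were barely read, with 1 and 3 reads over the 4 vehicle libraries and 18 and 19 over the 3 of TGF-β. The exception was Ifi30, a lysosomal thiol reductase, at -0.82 (SE 0.12, adjusted p = 1.79e-05). Of 23 class I genes tested, 11 were higher and 1 was lower, 12 of 23 beside 41.1% of all genes, led by Cd1d1, which presents lipids, at 3.07 (SE 0.62, adjusted p = 0.000445), Mr1, which presents vitamin metabolites, at 1.68 (SE 0.22, adjusted p = 2.39e-06), and H2-M3, which presents formylated peptides, at 1.32 (SE 0.30, adjusted p = 0.00143). H2-Q10, a secreted class I chain, was lower at -1.68 (SE 0.55, adjusted p = 0.0192). Cd1d1 and Mr1 were higher in fibroblast than epithelial libraries in vehicle, with group means of 3.60 against 0.341 CPM and 53.7 against 5.03 CPM. The estimated fibroblast share rose in the epithelial TGF-β libraries. With that share subtracted Cd1d1 (3.17, adjusted p = 0.108), Mr1 (1.16, adjusted p = 0.458) and H2-M3 (1.18, adjusted p = 0.165) did not pass. Nor did H2-Q10 (-1.87, adjusted p = 0.0549) or H2-Eb2 (4.87, adjusted p = 0.0703), and H2-DMb2 was no longer tested. H2-Eb1 (2.82, adjusted p = 0.000246) and Ifi30 (-0.72, adjusted p = 0.00446) still passed. The class I list then had 3 genes higher and 1 lower of 22 tested and the class II list 4 higher and 2 lower of 10, where 26.9% of all genes passed.

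Co-stimulation and interferon genes were read in the same way. Cd80, a ligand of CD28, was higher in epithelial TGF-β libraries at 2.48 (SE 0.29, adjusted p = 6.33e-07). It was a fibroblast-high gene, with vehicle means of 29.2 against 2.86 CPM in fibroblast and epithelial libraries, and did not pass with the share subtracted (2.17, adjusted p = 0.126). Cd40, the receptor by which helper T cells license presenting cells, had 0 reads in the 4 vehicle libraries and 0.584, 1.38 and 0.483 CPM under TGF-β, at least 16.2-fold higher against a floor of 3 reads over the vehicle group. In fibroblast libraries Cd40 had 1 read in all of vehicle and 0 in TGF-β. Of the interferon-induced genes outside presentation, 8 of 17 were higher and 0 lower, beside 41.1% of all genes that passed, led by Oasl2 (2.74, SE 0.57, adjusted p = 0.000565), Usp18 (2.18, SE 0.52, adjusted p = 0.00179) and Irgm2 (1.73, SE 0.49, adjusted p = 0.00672). In vehicle these 3 were higher in the fibroblast than the epithelial libraries, with means of 6.07 against 0.445 CPM for Oasl2, 2.20 against 0.684 CPM for Usp18 and 7.45 against 1.34 CPM for Irgm2. With the share subtracted Oasl2 (4.05, adjusted p = 0.0228) and Usp18 (2.80, adjusted p = 0.00577) still passed, Irgm2 (2.13, adjusted p = 0.0601) did not, and 4 of 17 were higher. Ifngr1, a chain of the interferon-γ receptor, was higher at 1.03 (SE 0.10, adjusted p = 5.58e-08) and its partner Ifngr2 lower at -0.28 (SE 0.09, adjusted p = 0.0153), a call lost with the share subtracted (-0.18, adjusted p = 0.118). Of 14 regulators 2 were lower, Rfxap (-0.54, SE 0.20, adjusted p = 0.0372), a subunit of the RFX complex of class II promoters, and Nfyc (-0.46, SE 0.10, adjusted p = 0.00126), a subunit of the factor that binds the Y box. With the share subtracted Rfxap (-0.62, adjusted p = 0.091) did not pass and Nfyc (-0.31, adjusted p = 0.0439) did. In fibroblast TGF-β libraries, where 19.1% of all genes passed, 13 of 24 class I genes were lower and 1, Calr, was higher at 0.36 (SE 0.12, adjusted p = 0.0491), among the lower ones H2-Q6 (-1.95, SE 0.40, adjusted p = 0.00165), H2-Q10 (-1.80, SE 0.45, adjusted p = 0.00859) and H2-Q4 (-1.72, SE 0.14, adjusted p = 7.75e-08). There 3 of 10 class II genes were lower, H2-Eb1 (-1.44, SE 0.28, adjusted p = 0.00095), the protease Lgmn (-1.15, SE 0.17, adjusted p = 7.94e-05) and H2-DMb1 (-0.96, SE 0.19, adjusted p = 0.00152). With the epithelial share subtracted 9 of 24 class I and 3 of 10 class II genes were lower, where 4.94% of all genes passed.

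**Figure D4:**
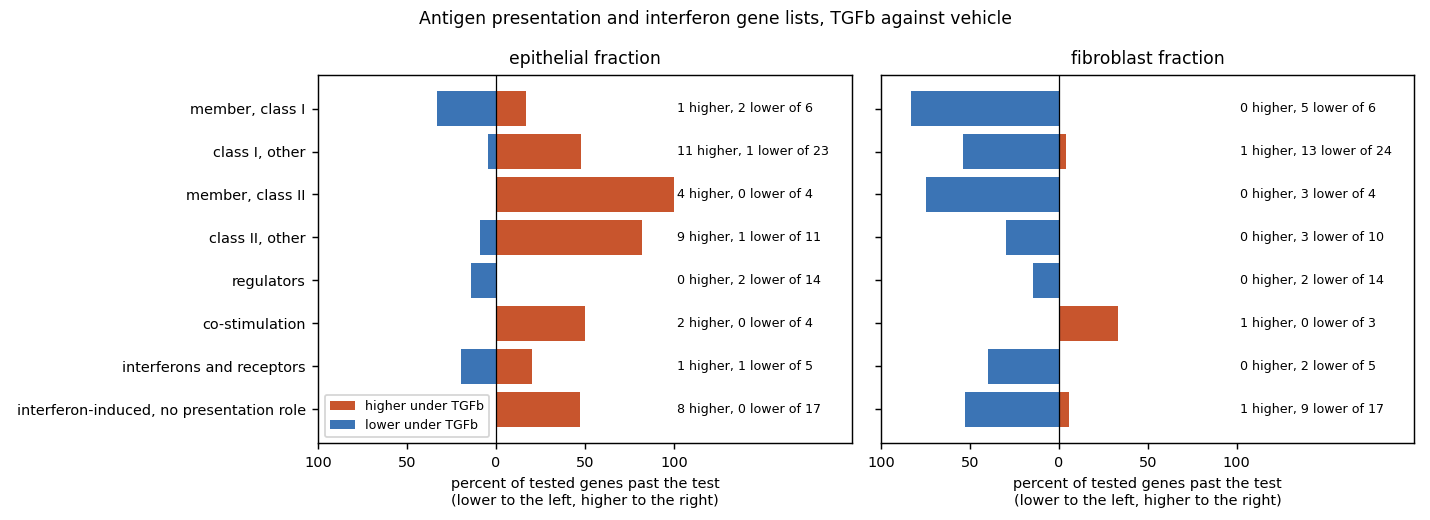
Percent of the tested genes of each list that passed the test under TGF-β against vehicle, with genes that were higher drawn to the right in orange and lower to the left in blue. In the epithelial fraction the class II bars point right (4 of 4 members and 9 of 11 others), and in the fibroblast fraction both class I bars point left (5 of 6 members and 13 of 24 others).

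In the fibroblast libraries the interferon-induced genes that passed were, but for 1, lower. Under TGF-β 9 of 17 were lower, beside the 19.1% of all genes that passed, and 1, Irgm1, was higher at 0.49 (SE 0.12, adjusted p = 0.00834), with the guanylate-binding proteins Gbp5 (-5.65, SE 0.87, adjusted p = 0.000123), Gbp4 (-3.28, SE 0.56, adjusted p = 0.000354) and the chemokine Cxcl10 (-2.51, SE 0.41, adjusted p = 0.000208) among the lower. Irf1, an interferon-induced transcription factor that acts on both class I and Ciita promoters, stood at 126, 255 and 526 CPM in fibroblast vehicle, a wide range, and at 50.8, 55.6, 60.5 and 64.7 CPM under TGF-β, at -2.02 (SE 0.26, adjusted p = 1.61e-05). Irf2 was lower too, at -0.57 (SE 0.14, adjusted p = 0.00914). Of the interferons and receptors Ifnlr1 (-2.59, SE 0.48, adjusted p = 0.000731), an epithelial receptor, and Ifnar2 (-0.50, SE 0.16, adjusted p = 0.0392) were lower, and of co-stimulation Cd80 was higher at 0.47 (SE 0.13, adjusted p = 0.0133). With the epithelial share subtracted 8 of 17 interferon-induced genes were lower and Irf1 passed at -2.29, adjusted p = 0.00386, while Irgm1, Irf2, Ifnlr1, Ifnar2, Cd80, Calr, H2-Q6 and H2-Q10 did not pass. Ifnlr1 then stood at 4.06, adjusted p = 0.775, with the opposite sign. EC lowered 6 of the 17 interferon-induced genes, where 7.11% of all genes passed, among them Gbp5 (-2.42, SE 0.67, adjusted p = 0.0392), Cxcl10 (-1.54, SE 0.40, adjusted p = 0.0295) and Gbp3 (-1.40, SE 0.21, adjusted p = 0.000867), and Irf1 as well (66.1, 64.01, 63.6 and 80.2 CPM, -1.83 (SE 0.26, adjusted p = 0.000555)), while no class I or II member passed. Of other lists EC gave lower Mr1 (-0.48, SE 0.14, adjusted p = 0.0495) and Cd80 (-0.59, SE 0.13, adjusted p = 0.0103) and higher Ifngr2 (0.68, SE 0.12, adjusted p = 0.00251). IPFc lowered 2 of 17, Gbp3 (-1.11, SE 0.20, adjusted p = 0.0181) and Gbp2 (-0.66, SE 0.12, adjusted p = 0.0218), where 0.449% of all genes passed. With the share subtracted, which left 0.195% of all genes past the threshold under EC and 0.023% under IPFc, none of the genes just named passed in either comparison, Irf1 under EC at -1.73, adjusted p = 0.123.

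In epithelial EC libraries 2 further class II genes were lower, H2-Eb1 (-1.39, SE 0.33, adjusted p = 0.0159) and H2-DMb1 (-0.96, SE 0.24, adjusted p = 0.0213), a subunit of H2-M, and the protease Ctsl was higher (0.49, SE 0.13, adjusted p = 0.0407), among 11 tested, where 4.41% of all genes passed. None of 23 class I list genes passed there. Nfkb1, a subunit of NF-κB, was higher at 0.43 (SE 0.08, adjusted p = 0.00201), as were Ifnar2 (0.80, SE 0.15, adjusted p = 0.00148), Ifngr2 (0.58, SE 0.08, adjusted p = 8.49e-05), Isg15 (1.63, SE 0.41, adjusted p = 0.0222) and Bst2 (0.47, SE 0.12, adjusted p = 0.0238). In epithelial IPFc libraries the 1 call across these lists was Cd80 at 0.97 (SE 0.27, adjusted p = 0.0487). With the fibroblast share subtracted Nfkb1, Ifnar2 and Ifngr2 still passed under EC, H2-Eb1 (-1.58, adjusted p = 0.0959), H2-DMb1 (-1.15, adjusted p = 0.0592), Isg15 (2.12, adjusted p = 0.117) and Bst2 (0.31, adjusted p = 0.76) did not, Ctsl was at -0.15, adjusted p = 0.98, and Cd80 did not pass under IPFc (0.69, adjusted p = 0.984).

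The genes whose levels followed Cd74 most closely over the 15 epithelial libraries were H2-Eb1 (Pearson r of log2 CPM 0.98), Ramp1, Nrep and Sparc (each 0.97) and Egfl6 (0.96), searched among 12865 genes and given as a description. The other class II members followed at 0.96 for H2-Ab1, 0.94 for H2-Aa and 0.84 for Ciita, and the heavy chains ran opposite, at -0.68 for H2-K1 and -0.40 for H2-D1. Sparc belongs to the fibroblast reference, and the 3 TGF-β libraries, where the estimated fibroblast share and Cd74 were both highest, are among the 15. For Tap1 the closest were Dcaf4, Mrvi1, Fbxw4, Aldh2 and Plekhb2 (0.87 to 0.89) over the epithelial and Parp12, Inhbb, Cpped1, Slc14a1 and Aifm2 (0.88 to 0.93) over the 15 fibroblast libraries, of which Parp12 is interferon-induced. Tap1 followed Psmb8, its neighbour on chromosome 17, at 0.73 in the epithelial and 0.10 in the fibroblast libraries.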

How the data were processed

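Bulk RNA was sequenced from 15 epithelial and 15 fibroblast libraries (directional NEBNext Ultra II libraries on an Illumina NovaSeq). According to the methods and labels, the authors trimmed reads with Trimmomatic 0.30 and mapped them to the mouse genome, GRCm38 in the paper and GRCm39 in the labels, and deposited raw read counts per gene, 1 table per library. The aligner, the counter and the strand setting are not given in the sources used here. Without a strand setting, reads of a gene and of an overlapping antisense gene cannot be told apart. The study's own tests used DESeq2 1.34.0 with the mouse as a pairing term.

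Here genes with a mean count of at least 1 were tested with edgeR 4.0.16 (R 4.3.3; TMM scaling, quasi-likelihood F test, Benjamini-Hochberg adjustment over all genes, threshold 0.05), with the mouse as a block. Each fraction was fitted on its own with its 4 treatments. Fractions were compared in a fit of all 30 libraries, and the difference of responses as an interaction with a block per mouse and fraction. SEs are the absolute log2 difference divided by the square root of F. Printed levels are CPM from library totals. The fibroblast estimates rest on 1 cell line, and epithelial replicates on the mice that the labels number, so the numbers pair libraries by animal. Deviations from the group mean correlated at 0.263 on average between libraries of the same mouse and at -0.0849 between other mice in the epithelial fraction, and at 0.283 and -0.0923 in the fibroblast fraction. Same-mouse values ranged from 0.0173 to 0.558 in the epithelial and from -0.194 to 0.617 in the fibroblast fraction. Taking off group means ties the value between other mice to the same-mouse one with opposite sign, so it is no separate contrast. No libraries of a group differed by as little as sampling noise.

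Depth ran from 5113828 to 20317181 counted reads, so a CPM of 1 stood for 5 to 20 reads. On simulated counts with changes of 1 log2 unit, the epithelial TGF-β comparison called 97% of the changed genes (17758 genes in the run) and the fibroblast one 80% (17784 genes). The changed genes were drawn from those with more reads, and the same spread was set for all genes of a fraction. No RNA of the other fraction was mixed in, so these rates do not cover barely read members or shifting shares.

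The 10 members and the gene lists were chosen with earlier results of these data known. Genes of the wider lists were named by rule, up to 3 with the largest change per list, direction and comparison among those that passed. Genes most like Cd74 and Tap1 were the 5 with the highest Pearson r of log2 CPM. Csf1r, Itgax, Cd14, Adgre1, the 6 AT2 genes, Sftpc, Epcam and Sparc were named after their values were seen. The alternatives were DESeq2 1.42.0, other scalings and filters, robust dispersion, fits of 2 groups alone, no mouse block, each mouse left out, and counts with the estimated RNA of the other fraction subtracted. This last one was extended, after the data were seen, to members in comparisons not against vehicle and to the named genes of the wider lists. A further alternative, for H2-K1 and H2-D1 against vehicle, put the sum of all class I heavy chain rows in place of the single rows. Promoter windows came from RefSeq, GRCm38.p6. A symbol stood on several rows for 114 symbols, none of them a member.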

Additional observations from a re-analysis of the deposited data

Results flagged for a closer look

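Within groups of 4 libraries, 60 sets of values were searched for a library that stood apart, by the gap to its neighbour as a share of the group's range, and 2 were found, where chance gives about 1 in 20. H2-D1 in fibroblast EC stood at 879 CPM in mouse 1 against 707 to 717 CPM in the other 3 mice, a gap of 0.94 of the range, in the library with the fewest reads. H2-Aa in epithelial vehicle stood at 5.4 CPM in mouse 4 against 7.05 to 7.1 CPM, a gap of 0.973 of the range.

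The response to TGF-β differed between the fractions, by an interaction term in edgeR, in 9 of the 10 genes. Of all genes tested 27.5% passed this term, and their median difference was itself 0.213. The log2 difference, epithelial minus fibroblast response, was 4.84 for Ciita, 4.74 for Cd74, 4.42 for H2-Aa and 4.29 for H2-Ab1. It was 3.52 for Psmb8, 2.3 for B2m, 1.91 for Nlrc5, 1.28 for H2-K1 and 0.77 for H2-D1. The estimated share of the other fraction's RNA changed in both fractions under TGF-β. With that share subtracted B2m (2.74) and Nlrc5 (1.20) no longer passed, and the other 7 did, where 13.7% of all genes passed.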

How the results depend on the processing

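Of the counts of members called, those of epithelial IPFc stayed at 0 under every alternative run, and those between fractions (26 over 4 treatments) and of the interaction (9) stayed within 1.5 times. For epithelial EC (2, beside 4.41% of all genes) the count was 4 with no filter. With the other fraction's share subtracted it was 1, where 1.99% of all genes passed. It was 1 (without mouse 3) to 3 (without mouse 4) when a mouse was left out. For epithelial TGF-β (7, beside 41.1% of all genes) it was 4 with the share subtracted, where 26.9% of all genes passed. For fibroblast EC (0) it was 1 with library totals, DESeq2, robust dispersion or 2 groups only, 2 with no filter, and 0 to 1 when a mouse was left out (1 without mouse 1). For fibroblast IPFc (0) it was 1 with no filter and 1 with 2 groups only. For fibroblast TGF-β (8, beside 19.1% of all genes) it was 5 with the share subtracted, where 4.94% of all genes passed. It was 5 (without mouse 3) to 8 when a mouse was left out. Over the 3 fibroblast comparisons between treatments (15) it was 9 (without mouse 3) to 17. Fewer libraries enter a fit without a mouse, and otherwise the cause was not tested.

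Without the mouse as a block, Nlrc5 in fibroblast TGF-β was at -0.93 (adjusted p = 0.0643), which brought that count to 7, and no other call against vehicle was changed. Without the block the counts between treatments were 15 in the epithelial (17 with it) and 11 in the fibroblast fraction, and those between fractions and of the interaction were 26 and 9 as before. Among values of single members against vehicle, 763 kept their side of the threshold under the alternatives, 14 gained a call and 15 lost one. None that was called changed sign. These counts include the summed class I heavy chain rows, set against H2-K1 and H2-D1. With the other fraction's share subtracted, tried after the data were seen for the remaining values, 16 of 130 member values in the other comparisons lost their call and 2 gained one. Of these 2, the call of Nlrc5 came where the subtraction left no reads under IPFc. Of 51 values of named genes of the wider lists 30 lost theirs, 1 was not tested, and 2 changed sign and did not pass, Ctsl in epithelial EC (-0.15) and Ifnlr1 in fibroblast TGF-β (4.06). Precision was limited for Ciita, Nlrc5 of the epithelial and Psmb8 of the fibroblast libraries, which stood at a few CPM or less.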
